A study of Macaca fascicularis with 32 samples.

Results

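Voltage-gated calcium and sodium channels are the proteins through which neurons turn a change in membrane potential into calcium entry or an action potential. In the deposited gene annotation, 39 of 22316 genes carry a symbol that starts with CACNA, CACNB or CACNG, or with SCN followed by a digit, and these 39 genes are described here. They comprise 10 pore-forming α1 subunits, 4 α2δ subunits, 3 β subunits and 8 γ subunits of calcium channels, and 10 pore-forming α subunits and 4 β subunits of sodium channels. Membership was set by symbol alone, but the group was chosen with earlier results of these data known. CACNB4, the remaining β subunit of calcium channels, was looked for and had no row under that symbol.

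The pore subunit sets the voltage range, kinetics and drug sensitivity of a channel. Calcium channel pores fall into the P/Q, N and R types (CACNA1A, CACNA1B and CACNA1E), which open at presynaptic terminals and dendrites, the L types (CACNA1C, CACNA1D, CACNA1F and CACNA1S) and the low-threshold T types (CACNA1G, CACNA1H and CACNA1I). The α2δ and β subunits carry the pore to the membrane and adjust its gating, while several γ subunits are better known as partners of AMPA-type glutamate receptors. Dopaminergic neurons of the substantia nigra fire on their own, and L-type calcium entry through the CACNA1D channel, together with sodium channels, takes part in that pacemaking. Spiny projection neurons (SPNs), the output cells of the striatum, are silent for long periods and are driven by cortical and thalamic input.

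Nuclei came from the substantia nigra (SN), the putamen (PUT) and the CN of Macaca fascicularis, the cynomolgus macaque, where CN is the caudate nucleus, called "Caudal nucleus" by the submitters, and were profiled with droplet-based 10x 3′ single-nucleus RNA sequencing. The title of the series names a monkey model of Parkinson's disease made with an adeno-associated virus carrying α-synuclein together with poly(ADP-ribose), and the treatment label of each sample is PD or CT, with no dose, age, sex or control injection given. The labels list 32 samples, 4 each of SN PD, SN CT, PUT PD and CN PD and 8 each of PUT CT and CN CT. The counts are held in 6 matrices, 1 for each region and treatment, in which no barcode is tied to a sample. Each matrix was therefore treated as 1 library, and no test between PD and CT, standard error or p-value was made.

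Levels are given as CPM, the usual counts-per-million scale of sequencing, which is the unique molecular identifiers (UMIs) of a gene summed over a class of nuclei and scaled to a fixed total of the UMIs of all genes in that class. An interval after a level is the exact 95% Poisson interval, and an interval after a ratio of PD to CT is the exact 95% binomial interval of that ratio. Both cover counting error only, not differences between animals. A gene was measured in a comparison with at least 50 UMIs over both matrices, and called past the fold when the ratio was above 1.5 or below 0.667. Fewer nuclei making a transcript and less of it in each nucleus cannot be told apart in such sums.

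The matrices held 56659 barcodes, and 52728 nuclei were retained after the filters, from 7173 in PUT PD to 9698 in SN CT. Total counts ran from 18692617 UMIs in SN PD to 36723856 in CN PD, and median depth of the retained nuclei ran from 1170 UMIs in SN PD to 3022 in CN CT. Every pair of matrices shared between 14 and 38 barcode sequences. Clusters were formed without the 39 channel genes and named from marker lists. The 12 dopaminergic markers summed to 2590.5 CPM in the dopaminergic class of SN CT and 113.4 CPM in its oligodendrocytes, and all 12 were detected in both classes. TH itself was low in the dopaminergic class, at 54.9 CPM in CT and 53.2 in PD, beside 699 and 679 CPM for the dopamine transporter SLC6A3. DRD1 was also low in direct pathway SPNs, at 4.12 CPM in PUT CT and 3.91 in CN CT, while DRD2 was 547 and 367 CPM in indirect pathway SPNs. Many clusters were drawn mostly from 1 matrix, so a difference between PD and CT in a class can also be a difference between clusters, and the clusters are given where it matters.

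Of the 39 genes, 33 were measured in at least 1 of 21 comparisons of PD with CT. The other 6 were CACNA1S, CACNG1, CACNG6, SCN4A, SCN10A and SCN11A, which are known mainly from muscle or peripheral sensory neurons except for CACNG6, and none of them reached 50 UMIs in a comparison. At least 10 CPM in 1 or more classes was reached by 28 of the 39 genes in SN CT, 33 in PUT CT and 31 in CN CT. In 19 of those 28, 23 of 33 and 22 of 31 the highest class was a neuron class. Exceptions found in all 3 CT matrices included SCN1A, CACNG4 and CACNG8, highest in oligodendrocyte precursors, and CACNA1F, highest in microglia or macrophages. These rankings took no account of counting error, and some leads were small. SCN1A of SN CT was 286 CPM in precursors and 284 CPM in other neurons. CACNA1F of CN CT was 24.4 CPM in microglia or macrophages, a class of 163976 UMIs, and 16.04 CPM in indirect pathway SPNs.

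**Figure D1:**
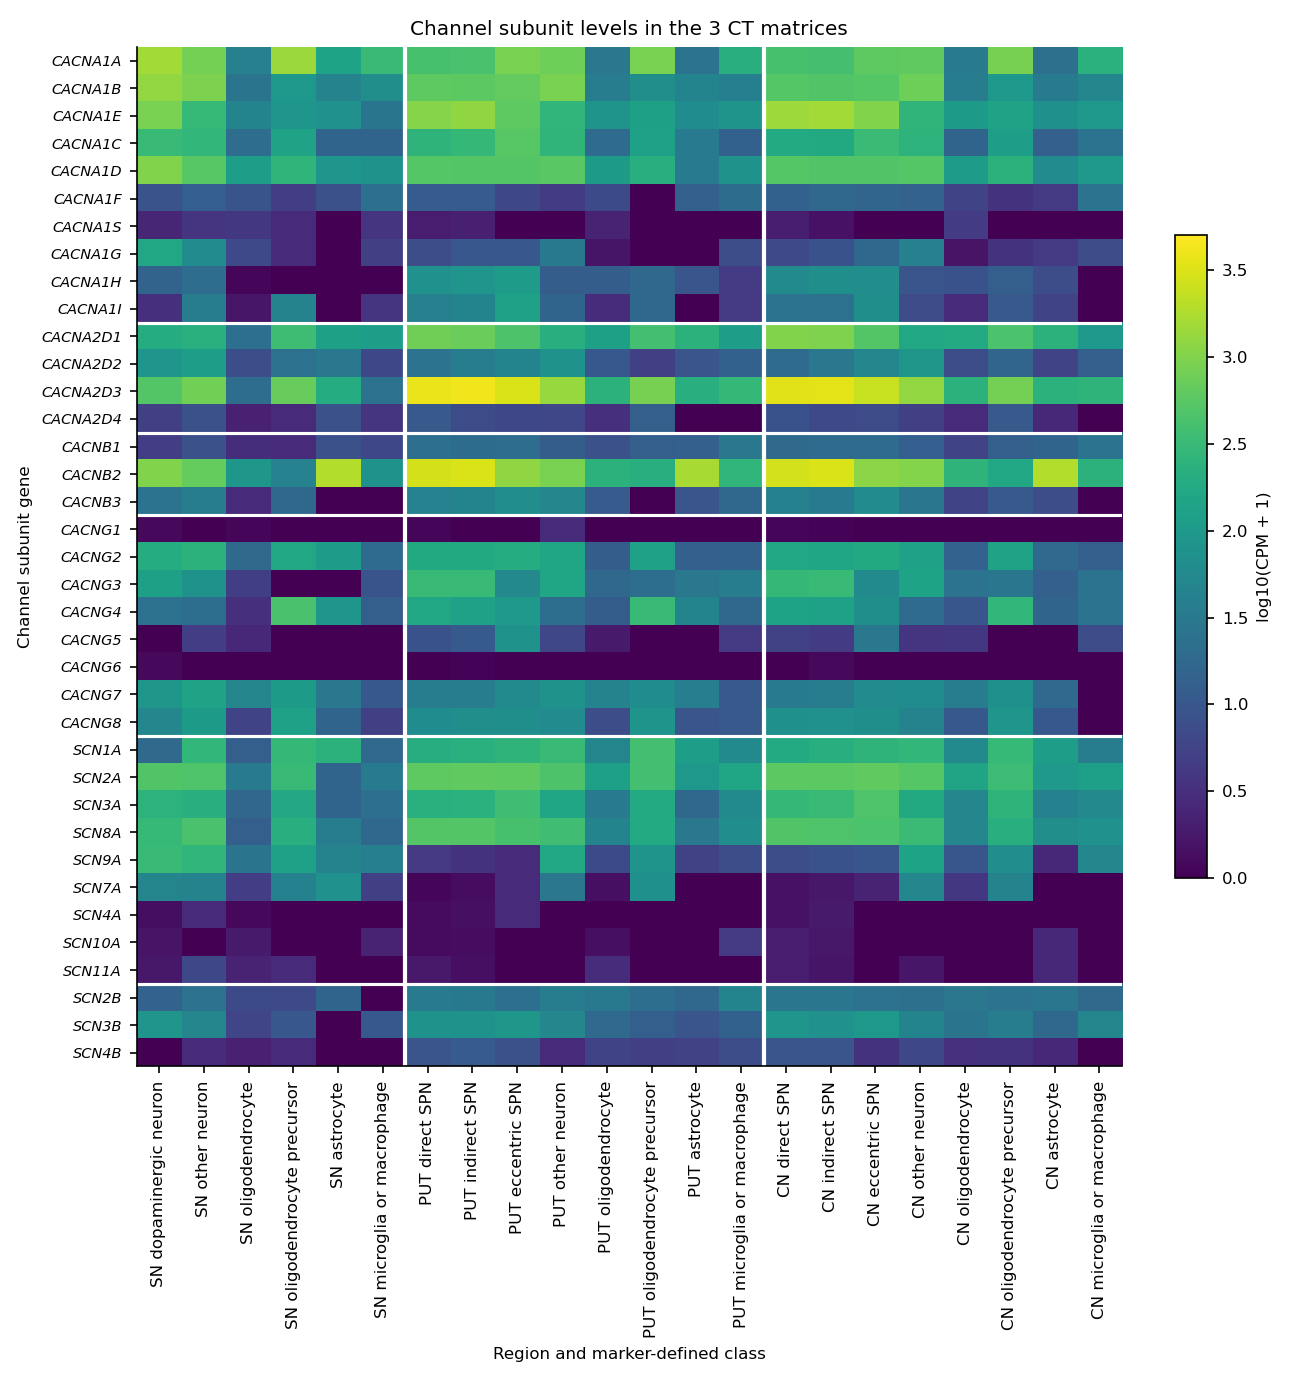
Level of 37 of the 39 channel genes (rows, grouped by subunit type with white lines between groups) in each marker-defined class of the 3 CT matrices (columns); colour is log10(CPM + 1). Neuron columns are brighter than oligodendrocyte columns for most pores, and CACNA2D3 and CACNB2 are brightest in spiny projection neurons.

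The P/Q-type pore CACNA1A was at 1553 (1519.9 to 1587) CPM in dopaminergic neurons of SN CT. Oligodendrocyte precursors of the same matrix held 1411 (1312 to 1514) CPM. In the striatum, precursors were above direct pathway SPNs, at 908 against 417 CPM in PUT CT and 865 against 424 CPM in CN CT. Eccentric SPNs of PUT CT held 887 CPM, close to the precursors. The intervals of precursors and direct pathway SPNs did not overlap in either region. Mature oligodendrocytes held 39.9, 29.1 and 33.6 CPM in SN, PUT and CN CT. The N-type pore CACNA1B was highest in dopaminergic neurons of the SN, at 1259.5 (1229.5 to 1290.1) CPM, and in the class of other neurons in both striatal regions, at 916 and 773 CPM. The R-type pore CACNA1E was highest in direct and indirect pathway SPNs among striatal classes: indirect pathway SPNs held 1214 CPM in PUT CT and 1539.99 in CN CT, other striatal neurons 274 and 259.8.

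Among the L types, CACNA1D was at 983 (957 to 1010.2) CPM in dopaminergic neurons of SN CT and 548 (505 to 594) CPM in the other neurons of that matrix. Striatal neuron classes lay close together for CACNA1D, from 497 to 572 CPM in CT. CACNA1C, the L type shared with the heart, was 315 CPM in dopaminergic neurons. It was low in mature oligodendrocytes of all CT matrices, between 14.8 and 19.9 CPM. CACNA1F, the photoreceptor L type, stayed at or below 24.4 CPM in every class of the CT matrices.

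The T types differed between dopaminergic neurons and SPNs. CACNA1G was at 163 (152 to 174) CPM in dopaminergic neurons of SN CT and at 6.38 and 5.59 CPM in direct pathway SPNs of PUT and CN CT. CACNA1H had the opposite order, with 14.3 CPM in dopaminergic neurons and 84.4 and 68.2 CPM in indirect pathway SPNs. CACNA1I was 2.26 CPM in dopaminergic neurons, 39.6 CPM in direct pathway SPNs of PUT CT and 128 (99.98 to 161) CPM in eccentric SPNs of the same matrix. In other nigral neurons of SN CT, CACNA1G was at 58.99, CACNA1H at 19.97 and CACNA1I at 34.5 CPM, and other neurons of PUT and CN CT held 30.3 and 39.5 CPM of CACNA1G.

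The α2δ subunit CACNA2D3 was at 4135 (4094 to 4175) CPM in indirect pathway SPNs of PUT CT and 3515 (3477 to 3553) CPM in CN CT. Dopaminergic neurons held 520.2 CPM. CACNA2D1, a target of gabapentin-type drugs as is CACNA2D2, was 777 and 986 CPM in direct pathway SPNs, and 194 CPM in dopaminergic neurons. CACNA2D2 was highest in the class of other neurons in SN, PUT and CN CT, at 119, 75.3 and 90.8 CPM. CACNA2D4, known from the retina, stayed at or below 12.3 CPM in the CT classes.

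The β subunit CACNB2 was 3133 CPM in indirect pathway SPNs of PUT CT and 3109.6 in CN CT, and 1885 (1662 to 2129) CPM in astrocytes of SN CT, above the 995 (968 to 1022) CPM of dopaminergic neurons there. Oligodendrocyte precursors of SN CT held 42.5 (26.9 to 63.7) CPM. The highest class levels in CT of the other β subunits were 29.1 CPM for CACNB1 in microglia or macrophages of PUT and 63.1 CPM for CACNB3 in eccentric SPNs of PUT.

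The γ subunits that act on AMPA receptors were found in neurons and in oligodendrocyte precursors. CACNG3 was 317 CPM in indirect pathway SPNs of PUT CT and 125 in dopaminergic neurons. CACNG4 was 427 (373 to 485) CPM in oligodendrocyte precursors of SN CT, 324 in PUT CT and 285 in CN CT, and 2.19 CPM in mature oligodendrocytes of SN CT. CACNG2, called stargazin, was found at 241 CPM in other nigral neurons, 157 CPM in precursors of SN CT and 174 CPM in direct pathway SPNs of PUT CT. CACNG8 was 131 CPM in precursors and 104 CPM in other neurons of SN CT. CACNG7 was 133 CPM in other neurons, 103 CPM in precursors and 46.9 CPM in oligodendrocytes of SN CT.

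Among sodium channel pores, SCN2A and SCN8A were spread over all neuron classes. SCN2A lay between 457 and 625 CPM over the neuron classes of the CT matrices. SCN8A, the main pore of mature axon initial segments, lay between 300.1 and 506 CPM. SCN1A, SCN9A and SCN7A differed between dopaminergic neurons and SPNs. SCN1A was 18.05 (14.6 to 22.04) CPM in dopaminergic neurons of SN CT, against 284 (253 to 317) CPM in other neurons of the same matrix and 203 and 179 CPM in direct pathway SPNs. SCN9A, known chiefly as a pain channel of sensory neurons, was 316 (301 to 332) CPM in dopaminergic neurons and 3.06 and 6.39 CPM in direct pathway SPNs. SCN7A, a sodium-sensing member of the family, was 46.6 CPM in dopaminergic neurons and at or below 0.729 CPM in direct and indirect pathway SPNs of both CT matrices.

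Among sodium channel β subunits, SCN3B lay between 45.4 and 92.3 CPM over the neuron classes of the CT matrices. SCN2B was at or below 45.2 CPM and SCN4B at or below 10.5 CPM in every class of those matrices.

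Within the other striatal neurons, small clusters differed in their channels. Cluster c28.0 of PUT CT and cluster c28.2 of CN CT, in which the neuropeptide SST was 538 and 655 CPM, held 564 (452 to 696) and 663 (530.2 to 819) CPM of SCN9A. Cluster c26.0 of PUT CT, of 20 nuclei, in which the acetylcholine enzyme CHAT was 311 CPM, held 3455 (3177 to 3752) CPM of CACNA2D3 and 208 (144 to 290.1) CPM of CACNB2. Cluster c20.0 of PUT CT, high in the GABA enzyme GAD1 at 549.9 CPM, held 112 CPM of CACNA2D3 and 77.5 CPM of CACNA1E. The low CACNA2D3 level of that cluster and the high level of cluster c26.0 lay on either side of the 1337 CPM of the whole class.

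Eccentric SPNs, a minor SPN population named here from CASZ1, OTOF and related markers, differed from direct and indirect pathway SPNs in several channel genes. They numbered 116 nuclei in PUT CT, 105 in PUT PD, 206 in CN CT and 195 in CN PD. CASZ1 was 27.05 CPM in eccentric SPNs of PUT CT and 0.311 CPM in indirect pathway SPNs, and RXFP1, a relaxin receptor that was not on the marker list, was 829 and 3.01 CPM. The 4 eccentric markers summed to 306.5 CPM in eccentric, 120.6 in indirect and 89.4 CPM in direct pathway SPNs of PUT CT. In that matrix 1 of the 4 had no UMI in eccentric SPNs, while all 4 were detected in direct pathway SPNs. The channel levels of these classes come from clusters of the same nuclei and are described without a test.

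CACNA1I, a T-type pore, was 68.3 (51.3 to 89.1) CPM in eccentric and 24.9 (22.1 to 28.04) CPM in direct pathway SPNs of CN CT, and 128 (99.98 to 161) and 39.6 (35.2 to 44.4) CPM in PUT CT. CACNA1C was 546 against 252 CPM in PUT CT and 327 against 182 CPM in CN CT. CACNA1A was also higher in eccentric SPNs, at 887 against 417 CPM and 613 against 424 CPM. SCN3A, a pore of the developing brain, was 361 against 219 CPM in PUT CT and 484 against 293 CPM in CN CT. CACNG5 was 77.5 against 7.57 CPM and 29.1 against 4.35 CPM. CACNG5 was among the 10 leading genes of clusters c17.1 and c17.5 and CACNA1I among those of c17.1, although channel genes had been left out of the clustering. Lower in eccentric SPNs were CACNG3, at 54.1 against 316 CPM and 56.9 against 287 CPM, and CACNB2, at 1212 against 2902 CPM and 1153 against 2845 CPM. The PD matrices gave the same order of the eccentric and direct classes for each of these genes.

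**Figure D2:**
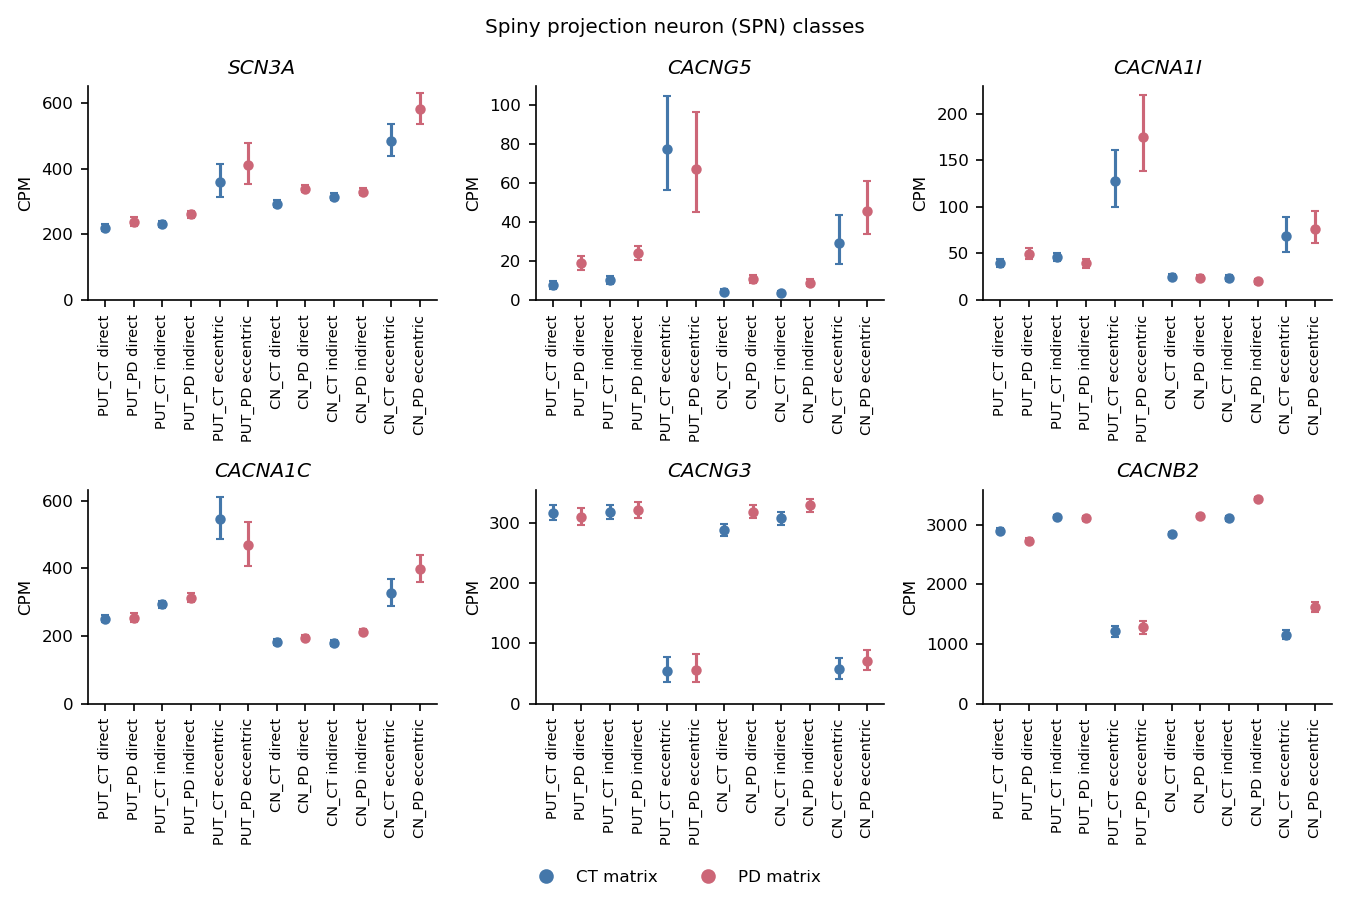
Level (CPM, linear axis from 0) of 6 channel genes in direct, indirect and eccentric spiny projection neurons of the PUT and CN matrices; blue points are CT, red points PD, and bars are exact 95% Poisson intervals. SCN3A, CACNA1I and CACNA1C are higher and CACNG3 and CACNB2 lower in the eccentric class of all 4 matrices, and CACNG5 is higher in PD than in CT in direct and indirect classes.

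The first comparison asks whether channel genes of nigral dopaminergic neurons, the cells lost in Parkinson's disease, differed between PD and CT. Of 27 measured channel genes, 3 were past the fold in the 354 CT and 278 PD nuclei, beside 13.9% of all 10713 genes measured there. SCN1A was 18.05 CPM (14.6 to 22.04) in CT and 42.7 CPM (36.5 to 49.6) in PD, a ratio of 2.37 (1.83 to 3.07). CACNB2 was 995 CPM (968 to 1022) in CT and 659.6 CPM (635 to 685) in PD, a ratio of 0.663 (0.633 to 0.695), and SCN7A was 46.6 CPM (41.01 to 52.8) in CT and 70.9 CPM (62.9 to 79.7) in PD, a ratio of 1.52 (1.28 to 1.81). The 3 of 27 genes are 11.1%, close to the share of all genes.

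Among the pores that did not pass the fold, CACNA1D was 983 against 753 CPM in CT against PD (ratio 0.766, 0.732 to 0.801), CACNA1E 908 against 704 CPM (ratio 0.776, 0.740 to 0.813) and CACNA1B 1259.5 against 1018 CPM (ratio 0.808, 0.777 to 0.840). Each was lower in PD by an amount beyond counting error. CACNA1A, at 1553 against 1535 CPM, CACNA1G, at 163 against 154 CPM, SCN2A, at 491 against 499.99 CPM, SCN8A, at 300.1 against 309 CPM, and SCN9A, at 316 against 311 CPM, had ratios whose intervals held 1, with 0.947 (0.853 to 1.05) for CACNA1G. CACNA2D3 was 520.2 against 687 CPM (ratio 1.32, 1.25 to 1.39).

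Dopaminergic nuclei fell into 7 clusters, and these differed in channel genes and in their source. Clusters c7.0, c7.1 and c7.2 came mostly from CT, with 80, 117 and 87 nuclei against 19, 10 and 19 in PD. Clusters c7.5 and c7.6 came mostly from PD, with 44 and 60 nuclei against 1 and 12 in CT, while cluster c7.3 held 37 CT and 98 PD nuclei and cluster c7.4 held 20 and 28. Cluster c7.6 of PD had SCN1A at 107 (84.9 to 134) CPM and CACNA2D3 at 2282 (2174 to 2393) CPM. In the 5 clusters other than c7.4 and c7.6, SCN1A lay between 10.4 and 20.5 CPM. CACNA1G in cluster c7.6 was 62.5 (45.7 to 83.3) CPM, below the 194 (163 to 229) CPM of cluster c7.5. ALDH1A1 and SOX6, markers of ventral tier dopaminergic neurons, were 46.2 and 14.9 CPM in cluster c7.6 and 393 and 522 CPM in cluster c7.5. The calcium buffer CALB1 was 43.5 CPM in cluster c7.6 and 4.24 CPM in cluster c7.5.

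SCN1A was 19.5 CPM in CT and 20.5 CPM in PD of cluster c7.3, and 64.2 (37.4 to 103) and 99.2 (69.5 to 137) CPM in cluster c7.4. Over all clusters held by both matrices, a set defined below that includes cluster c7.6, the ratio of SCN1A was 2.49 (1.87 to 3.35). Over the same set CACNB2 and SCN7A were within the fold, at 0.690 (0.653 to 0.729) and 1.48 (1.21 to 1.80). Without cluster c7.6 the ratio of SCN1A over the class was 1.64 (1.21 to 2.22), that of CACNA2D3 0.680 (0.633 to 0.731), below 1 where it was above 1 with the cluster, that of SCN7A 1.46 (1.21 to 1.76) and that of CACNB2 0.671 (0.638 to 0.705), which left SCN1A as the 1 channel gene of 27 past the fold (12.9% of all genes measured without the cluster). CACNB2 was 746 CPM in CT and 666 CPM in PD of cluster c7.3, 763 and 691 CPM in cluster c7.4, and between 961 and 1114 CPM in clusters c7.0 to c7.2 of CT. The part of cluster membership in the class ratios was not tested beyond these values.

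**Figure D3:**
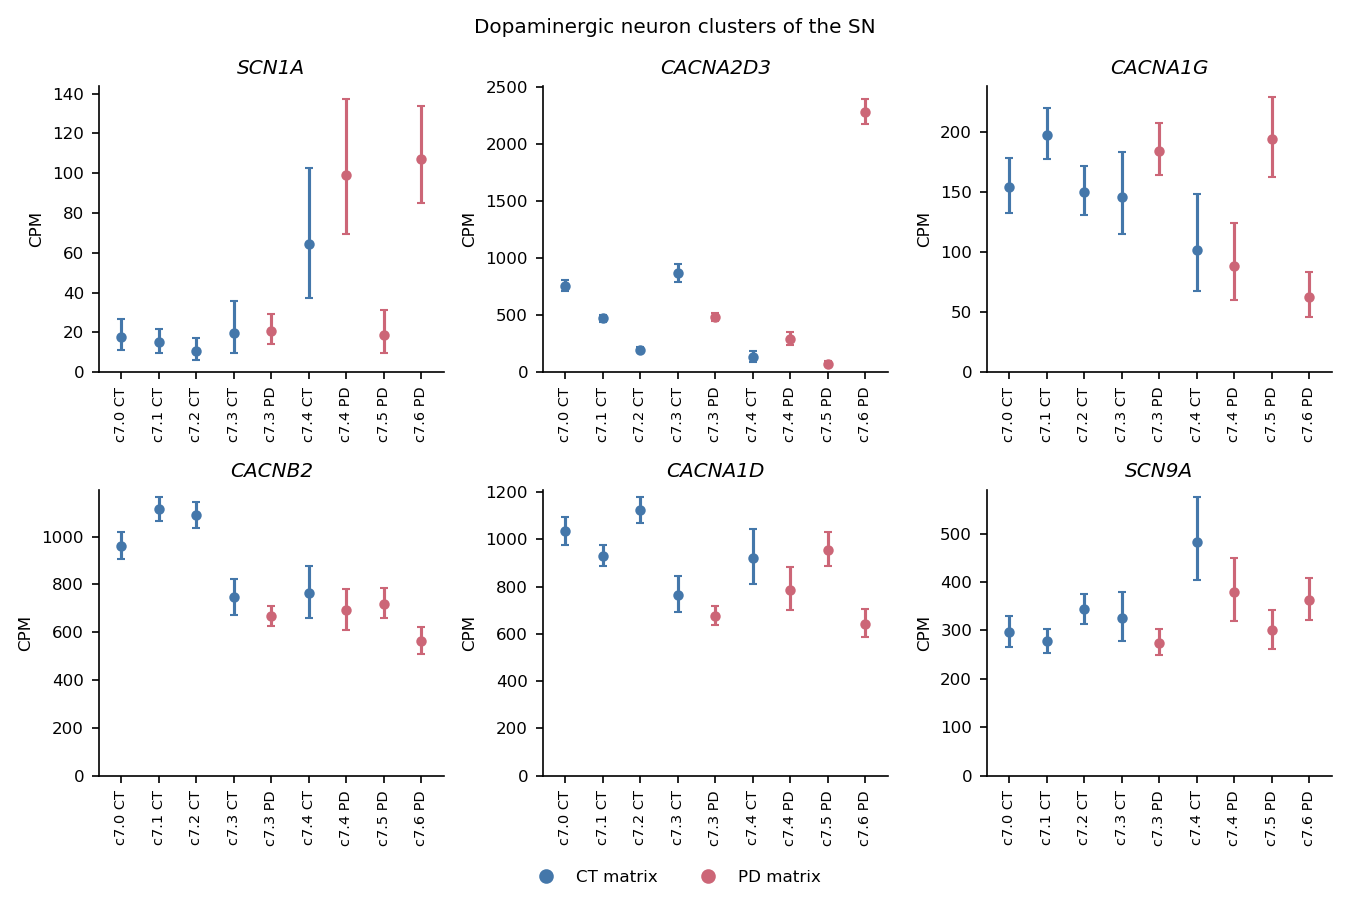
Level (CPM, linear axis from 0) of 6 channel genes in dopaminergic clusters c7.0 to c7.6 of the SN, for each cluster and matrix with at least 20 nuclei; blue points are CT, red points PD, and bars are exact 95% Poisson intervals. SCN1A is high in clusters c7.4 and c7.6, CACNA2D3 is far above the other clusters in c7.6, and CACNB2 is highest in clusters c7.0 to c7.2.

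In the other neurons of the SN, 5 of 27 measured channel genes were past the fold (13.4% of all genes measured). CACNA2D1 was 225 CPM in CT and 385 CPM in PD (ratio 1.71, 1.47 to 1.99) and the T-type pore CACNA1G 58.99 CPM in CT and 100.2 CPM in PD (ratio 1.70, 1.26 to 2.31). CACNG4 was 20.9 CPM in CT and 40.6 CPM in PD (ratio 1.94, 1.19 to 3.29), CACNG7 133 CPM in CT and 79.9 CPM in PD (ratio 0.599, 0.467 to 0.766), and CACNA1H 19.97 CPM in CT and 32.7 CPM in PD with an interval that held 1 (ratio 1.64, 0.975 to 2.84). CACNA2D1 followed the clusters: cluster c9.0, in which the glutamate transporter SLC17A6 was detected, held 598 CPM in CT and 735 CPM in PD, while clusters c9.3 and c9.4 held between 14.5 and 30.6 CPM. As the mean of single-nucleus CPM, which gives each nucleus equal weight, its log2 ratio was 0.18 and below the fold. Clusters c9.1 and c9.2, GAD2-positive neurons led by the transcription factor PAX5 and given no class, held between 247 and 376 CPM of SCN1A and between 2.69 and 24.7 CPM of CACNA2D1 over both matrices.

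Levels in glia have to be read beside free RNA from neurons, for which no correction was made. Dopaminergic markers served as tracers in SN glia and SPN markers in striatal glia, each as a share of the level over all neuron classes of the same matrix. In oligodendrocytes of SN CT the summed tracers were at 5.26% of the neuron level, and in SN PD at 6.60%. The corresponding shares were 15.6% and 16.1% in PUT and 18.8% and 21.2% in CN, and single tracers ranged up to 53.005% in oligodendrocytes of PUT CT. In PUT CT oligodendrocytes, CACNA2D3 was at 6.09% and CACNB2 at 8.28% of the neuron level, below the summed tracers and within the range of the single tracers, the lowest of which was at 3.55%, and the part of free RNA in such values was not tested. CACNA1A in precursors of PUT CT was at 196% and CACNG4 at 244% of the neuron level, beside 15.3% for the summed tracers. CACNB2 in SN CT astrocytes was at 200.5%.

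In oligodendrocytes of the SN, 8 of 24 measured channel genes were past the fold (17.3% of all genes measured). CACNA1D, at 12.8% of the neuron level in CT, was 117 CPM (109.8 to 124) in CT and 63.6 CPM (57.9 to 69.7) in PD, a ratio of 0.545 (0.488 to 0.608). CACNA1C was lower in the same class, at 19.9 against 11.7 CPM (ratio 0.587, 0.448 to 0.764). Higher in PD were SCN8A, at 12.2 against 23.96 CPM (ratio 1.97, 1.54 to 2.52), CACNA2D3, at 20.3 against 31.4 CPM (ratio 1.55, 1.27 to 1.89), CACNA1F, at 7.99 against 13.1 CPM (ratio 1.64, 1.19 to 2.25), and SCN7A, at 3.72 against 7.02 CPM (ratio 1.89, 1.20 to 3.002). SCN3B and CACNG3 were past the fold with intervals that held 1. Clusters held by both matrices, to each of which both matrices gave at least 10% of the summed shares, were also taken alone, a choice made after the data were seen. Over these clusters the ratio of CACNA2D3 was within the fold, at 1.29 (0.863 to 1.92), and that of SCN8A was 3.49 (2.09 to 6.07). SCN8A and CACNA2D3 were at 3.76% and 3.55% of the neuron level in CT, below the summed tracers. In PD the share of SCN8A lay above the 6.60% of the summed tracers and that of CACNA2D3 below it. With nuclei of at least 1000 genes, SCN7A had a log2 ratio of -0.012 from 26 UMIs, and CACNA1F a ratio of 1.30 (0.773 to 2.17).

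Oligodendrocyte precursors, which receive synaptic input and carry voltage-gated channels, gave 4 of 17 measured channel genes past the fold in the SN (12.3% of all genes measured), 1 of 13 in PUT (14%) and 2 of 16 in CN (14.3%). CACNB2 was 42.5 CPM (26.9 to 63.7) in CT and 139 CPM (107 to 178) in PD in the SN, a ratio of 3.28 (2.01 to 5.54). In CN it was 161 CPM (124 to 205) in CT and 328 CPM (278 to 386) in PD, a ratio of 2.04 (1.51 to 2.77), and in PUT 218 CPM in CT and 258 CPM in PD (ratio 1.18, 0.826 to 1.71). CACNB2 in precursors was at 4.52% and 20.9% of the neuron level in SN CT and PD, and the summed tracers at 5.49% and 5.85%. The part of free RNA from other cells, among them astrocytes with 1885 CPM of CACNB2 in SN CT, was not tested. In CN these shares were 5.80% and 10.6% for CACNB2, below the tracers at 15.2% and 18.5%. CACNA1B was lower in PD in the same regions, at 92.3 against 28.8 CPM in the SN (ratio 0.311, 0.155 to 0.582) and 94.2 against 46.6 CPM in CN (ratio 0.495, 0.276 to 0.865), while PUT gave 65.7 and 91.4 CPM with too few UMIs for a ratio. As a share of the neuron level, CACNA1B in SN precursors lay above the summed tracers in CT and below them in PD. The part of free RNA in these values was not tested. In the SN CACNA1C was 135 against 86.3 CPM (ratio 0.640, 0.422 to 0.957) and CACNA1E 86.8 against 133 CPM (ratio 1.53, 1.03 to 2.29), and in PUT CACNG2 was 131 against 228 CPM (ratio 1.74, 1.13 to 2.73). As the mean of single-nucleus CPM, the SN ratios of CACNA1C and CACNA1E were within the fold, at 0.701 and 1.39. CACNG4 was 427 against 464 CPM in the SN (ratio 1.09, 0.899 to 1.32), 324 against 427 in PUT (ratio 1.32, 0.989 to 1.76) and 285 against 326 in CN (ratio 1.14, 0.890 to 1.47), not past the fold in any region.

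The microglia or macrophage class held different clusters in SN CT and SN PD. In CT, 684 of 705 nuclei were in cluster c8.0, and in PD 379 of 581 were in cluster c16.0 and 152 in cluster c8.0. The macrophage gene F13A1 was 30.01 CPM in cluster c8.0 of CT and 445 CPM in cluster c16.0 of PD, and summed macrophage markers were 899 CPM in the class of CT and 1994 CPM in PD. Of 6 measured channel genes, 4 were past the fold, all lower in PD (25% of all genes measured, with 733 higher and 592 lower). CACNA2D1 was 117 CPM (94.1 to 145) in CT and 16.98 CPM (8.14 to 31.2) in PD, a ratio of 0.145 (0.0671 to 0.279). It was 117 (93.8 to 145) CPM in CT and 38.8 (14.2 to 84.4) CPM in PD of cluster c8.0, and 10.5 (2.85 to 26.8) CPM in cluster c16.0, so it was lower within cluster c8.0 too. CACNA1B was 65.3 against 25.5 CPM (ratio 0.390, 0.203 to 0.707), CACNB2 77.3 against 35.7 CPM (ratio 0.461, 0.266 to 0.771) and CACNA1D 74.7 against 42.5 CPM (ratio 0.569, 0.340 to 0.926). At 5.44%, 8.23% and 8.22% of the neuron level in CT these genes lay near the summed tracers at 6.26%, and CACNA2D1 at 58.9% lay above them. Over clusters held by both matrices, which leave out c16.0, the ratio of CACNB2 was within the fold, at 0.705 (0.321 to 1.39), and that of CACNA2D1 was 0.279 (0.0997 to 0.632).

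In the striatum the class was 1 cluster in the main: cluster c8.2 held 336 of 357 nuclei in PUT CT, 398 of 412 in PUT PD, 172 of 192 in CN CT and 321 of 370 in CN PD. There the P/Q-type pore CACNA1A was 217 CPM (168 to 275) in CT and 687 CPM (602 to 781) in PD, a ratio of 3.17 (2.41 to 4.23). In CN it was 232 CPM (164 to 318) in CT and 739 CPM (657 to 828) in PD, a ratio of 3.19 (2.27 to 4.60). Neither pair of intervals overlapped. Within cluster c8.2 alone it was 224 and 695 CPM in PUT and 245 and 822 CPM in CN. In cluster c8.0 of the SN, CACNA1A was 327 (287 to 371) CPM in CT and 640.1 (520.2 to 779) CPM in PD, but over the whole SN class, with cluster c16.0 at 233 (187 to 287) CPM, it was 323 against 353 CPM (ratio 1.09, 0.905 to 1.32). As a share of the neuron level, CACNA1A of the striatal class was at 46.9% and 117% in PUT CT and PD and 52.8% and 133% in CN. The summed SPN tracers in the class were 1567 and 1718 CPM in PUT and 939 and 1213 CPM in CN, a smaller step than that of CACNA1A, and their part in it was not tested. CACNA1A is also high in oligodendrocyte precursors, whose summed markers were 359 and 475 CPM in the microglia or macrophage class of PUT CT and PD and 378 and 427 CPM in CN. Summed macrophage markers were 873 and 1115 CPM in PUT and 1006 and 1303 CPM in CN.

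Past the fold in the striatal class were 2 of 8 measured channel genes in PUT (18.2% of all genes measured) and 4 of 8 in CN (21.1%). CACNA2D3 was 294 against 492 CPM in PUT (ratio 1.67, 1.29 to 2.18) and 250.04 against 482 CPM in CN (ratio 1.93, 1.37 to 2.77). CACNB2 was 238 against 434 CPM in CN (ratio 1.83, 1.28 to 2.66) and 271 against 352 CPM in PUT (ratio 1.30, 0.975 to 1.74). CACNA2D1 in CN was 91.5 against 162 CPM (ratio 1.77, 1.001 to 3.35). CACNA2D3 and CACNB2 were at 11.99% and 14.04% of the neuron level in CN PD, at or below the summed tracers of 14.1%, and single tracers ran from 0 to 42.4% with a median of 13.03%. The part of free RNA in both was not tested. With no doublet removal, CACNA2D3 of PUT was within the fold, at 1.30 (1.03 to 1.65). Median depth per nucleus of the class was 764 UMIs in CN CT and 991 in CN PD.

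**Figure D4:**
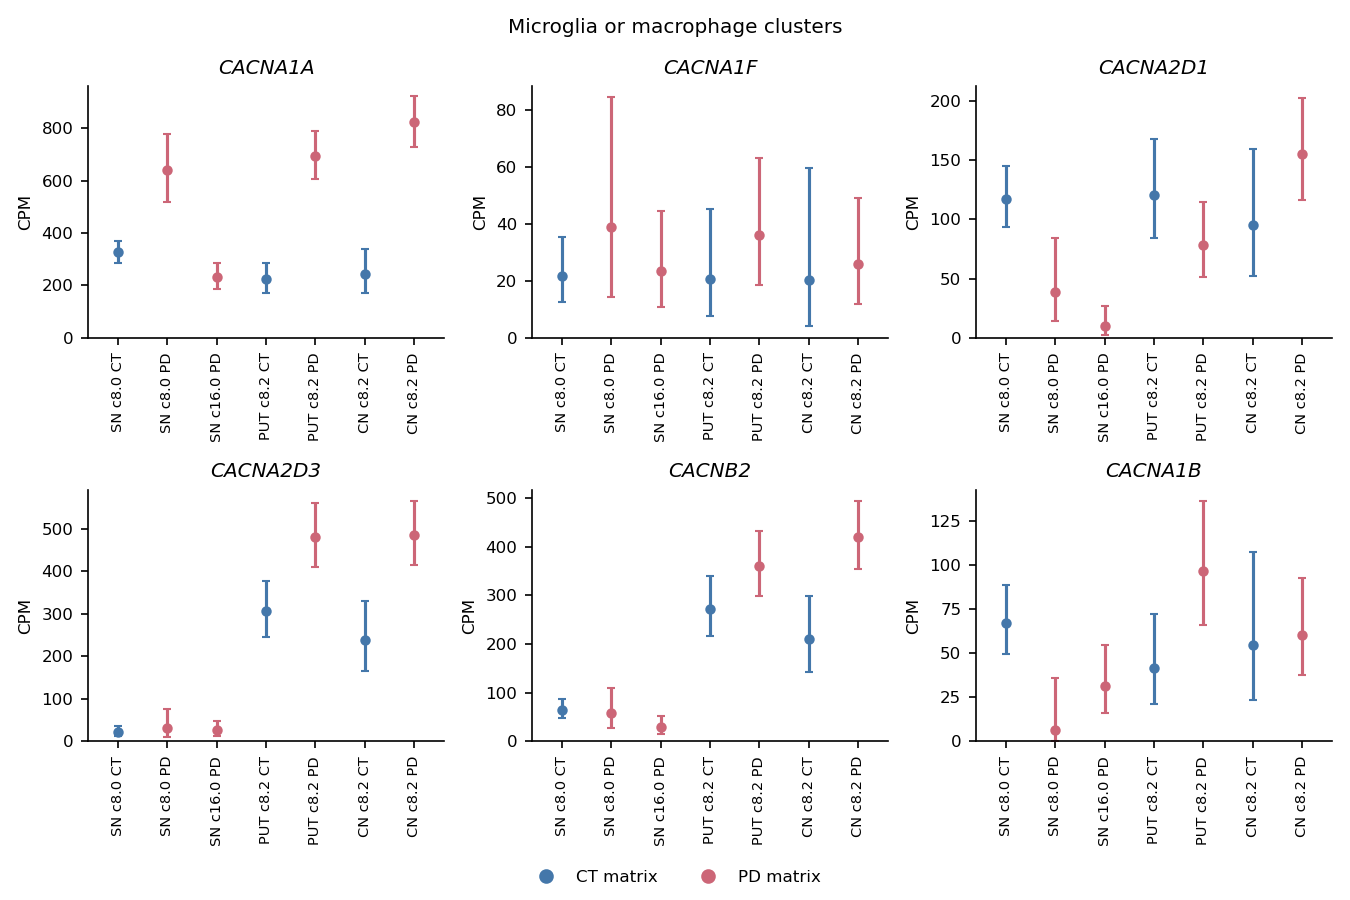
Level (CPM, linear axis from 0) of 6 channel genes in the main microglia or macrophage clusters, labelled by region, cluster and matrix; blue points are CT, red points PD, and bars are exact 95% Poisson intervals. CACNA1A is higher in PD than in CT in cluster c8.2 of PUT and CN and in cluster c8.0 of the SN, CACNA1F intervals of CT and PD overlap in cluster c8.2 and cluster c8.0, and CACNA2D1 is lower in both SN PD clusters than in SN CT.

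In direct pathway SPNs, 1 of 30 measured channel genes was past the fold in PUT (13.8% of all genes measured) and 3 of 31 in CN (17.1%). In indirect pathway SPNs, 1 of 30 was past the fold in PUT (13.9%) and 4 of 31 in CN (17.6%). CACNG5 was the gene found in all 4 comparisons. It was 7.57 CPM (5.74 to 9.81) in CT and 18.9 CPM (15.5 to 22.7) in PD in direct pathway SPNs of PUT (ratio 2.49, 1.79 to 3.49) and 10.1 CPM (8.16 to 12.3) in CT and 24.0004 CPM (20.6 to 27.8) in PD in indirect pathway SPNs (ratio 2.39, 1.85 to 3.09). In CN it was 4.35 CPM (3.22 to 5.75) in CT and 10.6 CPM (8.80 to 12.7) in PD in direct (ratio 2.44, 1.74 to 3.47) and 3.44 CPM (2.37 to 4.83) in CT and 8.72 CPM (7.07 to 10.7) in PD in indirect pathway SPNs (ratio 2.54, 1.69 to 3.89). In eccentric SPNs, where its level was higher, CACNG5 was 77.5 against 67.01 CPM in PUT (ratio 0.864, 0.520 to 1.42) and 29.1 against 45.7 CPM in CN (ratio 1.57, 0.936 to 2.71).

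The SPN clusters were also divided between matrices. The main direct pathway clusters of PUT were c21.0, with 1289 CT nuclei and CACNG5 at 7.43 (5.50 to 9.83) CPM, and c21.2, with 1064 PD nuclei and CACNG5 at 18.8 (15.2 to 23.02) CPM. In cluster c22.2, of indirect pathway SPNs in PUT, CACNG5 was 22.8 (15.5 to 32.4) CPM in CT and 37.1 (25.1 to 53.02) CPM in PD. Over clusters held by both matrices, CACNG5 had a ratio of 1.56 (1.08 to 2.26) in indirect pathway SPNs of PUT and 1.64 (1.02 to 2.71) in those of CN, smaller than over the whole classes. In direct pathway SPNs those clusters held 19 UMIs of CACNG5 in PUT and 8 in CN, under the minimum of 50, so neither direct pathway call could be made there. In CN, clusters c19.1 and c19.2 held 15.3 and 18.8 CPM in CT, while the largest direct pathway cluster of CT, c24.1, held 0.866 CPM and that of PD, c24.0, 4.92 CPM.

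Other SPN differences were found in CN. SCN9A was 6.39 CPM (5.001 to 8.05) in CT and 2.10 CPM (1.35 to 3.13) in PD in direct (ratio 0.329, 0.198 to 0.529) and 7.50 CPM (5.87 to 9.45) in CT and 1.54 CPM (0.900 to 2.47) in PD in indirect pathway SPNs (ratio 0.206, 0.114 to 0.353). Its levels are low in these classes beside 139 CPM in other neurons of CN CT, and SPNs of PUT held 3.06 CPM in CT and 0.857 CPM in PD of the direct class, under 50 UMIs in all. CACNA1G was 7.61 against 4.82 CPM in indirect pathway SPNs of CN (ratio 0.633, 0.436 to 0.914), and 0.704 (0.484 to 1.02) when centred on the median of all genes, within the fold. Clusters held by both matrices had 6 and 7 UMIs of SCN9A in the direct and indirect classes of CN and 30 of CACNA1G in the indirect class, too few for a call. The median log2 ratio of all genes measured was -0.14 in direct and -0.15 in indirect pathway SPNs of CN, and the ratios above are not corrected for that shift. The medians of the channel genes were -0.011 and 0.029.

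Several other SPN channel genes stayed within the fold. CACNA2D3 was 3927 against 4416 CPM in direct pathway SPNs of PUT (ratio 1.12, 1.11 to 1.14) and 3429 against 4171 CPM in CN (ratio 1.22, 1.20 to 1.23). CACNA1A was higher in PD in all 4 comparisons, short of the fold, with ratios from 1.21 (1.17 to 1.26) in direct pathway SPNs of CN to 1.31 (1.25 to 1.38) in those of PUT. CACNA1E, CACNB2, SCN2A and SCN8A had direct pathway ratios of 0.972 (0.940 to 1.005), 0.941 (0.922 to 0.961), 0.918 (0.878 to 0.961) and 1.01 (0.963 to 1.06) in PUT, and 0.992 (0.971 to 1.01), 1.11 (1.09 to 1.13), 1.02 (0.985 to 1.05) and 0.988 (0.952 to 1.03) in CN.

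In eccentric SPNs, 2 of 23 measured channel genes were past the fold in PUT (15.2% of all genes measured) and 2 of 24 in CN (17.6%). The interval excluded 1 for SCN1A of PUT, at 251 CPM (211 to 296) in CT and 159 CPM (124 to 202) in PD (ratio 0.636, 0.470 to 0.855), and held 1 for CACNA2D2 of PUT and for CACNG5 and CACNG7 of CN. SCN1A in CN was 252 against 191 CPM (ratio 0.758, 0.619 to 0.927), lower in PD but short of the fold. Cluster c17.1 held most eccentric nuclei of PUT, 96 in CT and 87 in PD, whereas in CN cluster c17.2 held 179 CT nuclei and cluster c17.5 held 190 PD nuclei.

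In other striatal neurons, 3 of 25 measured channel genes were past the fold in PUT (12.5% of all genes measured) and 1 of 25 in CN (14.8%). CACNA2D3 was 1337 CPM (1271 to 1405) in CT and 2163 CPM (2066 to 2264) in PD in PUT (ratio 1.62, 1.51 to 1.73), beside 1274 against 1478 CPM in CN (ratio 1.16, 1.09 to 1.23). Cluster c20.0, which held 112 CPM of it in PUT CT and 222 CPM in PUT PD, made up 60 of 261 CT and 24 of 205 PD nuclei of the class. CACNG4 was 20.8 against 32.4 CPM in PUT (ratio 1.56, 0.872 to 2.81) and 18.4 against 32.5 CPM in CN (ratio 1.76, 1.09 to 2.91), and SCN2B 34.6 against 18.5 CPM in PUT (ratio 0.535, 0.280 to 0.977). Over clusters held by both matrices the CN ratio of CACNG4 was within the fold, at 1.40 (0.856 to 2.34), and as the mean of single-nucleus CPM so was that of CACNA2D3 in PUT, at 1.45.

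Astrocytes of the striatum gave 1 of 4 measured channel genes past the fold in PUT (18.1% of all genes measured) and 1 of 9 in CN (16.3%), and it was SCN1A in both. Their clusters were divided between matrices. Cluster c13.0 held 116 CT and 17 PD nuclei in PUT and 395 and 33 in CN. Cluster c13.1 held 36 and 93 in PUT and 46 and 211 in CN. The part of cluster membership in the astrocyte ratios was not tested. SCN1A was 112 CPM (74.1 to 164) in CT and 233 CPM (162 to 324) in PD in PUT (ratio 2.07, 1.22 to 3.56) and 118 CPM (92.9 to 149) in CT and 219.6 CPM (178 to 268) in PD in CN (ratio 1.86, 1.36 to 2.55). As a share of the neuron level it was 51.1% and 113% in PUT CT and PD and 57.9% and 126% in CN, while the summed tracers were at 16.6% and 17.7% in PUT and 21.5% and 21.2% in CN. The shares of SCN1A lay above the summed tracers. Single tracers reached 68.7% and 73.3% in PUT CT and PD and 72.5% and 60.96% in CN, above the share of SCN1A in both CT matrices and below it in both PD matrices. In SN astrocytes, with 89 CT and 51 PD nuclei and no comparison made, SCN1A was 240.1 (165 to 337) and 290.03 (184 to 435) CPM. CACNB2 in astrocytes was 1653 against 1471 CPM in PUT (ratio 0.890, 0.751 to 1.05) and 1906 against 1458 CPM in CN (ratio 0.765, 0.694 to 0.843).

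In striatal oligodendrocytes, 4 of 25 measured channel genes were past the fold in PUT (19.4% of all genes measured) and 4 of 20 in CN (18.3%). SCN2B was lower in PD in both, at 30.2 against 19.8 CPM in PUT (ratio 0.657, 0.487 to 0.878) and 28.3 against 15.3 CPM in CN (ratio 0.542, 0.366 to 0.807), and stood at 97.2% and 106% of the neuron level in CT. CACNA1A was 29.1 against 48.2 CPM in PUT (ratio 1.65, 1.31 to 2.09), and CACNA2D2 and CACNA1F there had intervals that held 1. Over clusters held by both matrices of PUT, SCN2B and CACNA1A were within the fold, at 0.775 (0.485 to 1.21) and 1.36 (0.940 to 1.97). In CN, CACNA2D3 was 240.2 against 389.9 CPM (ratio 1.62, 1.45 to 1.81), CACNB2 251 against 379 CPM (ratio 1.51, 1.35 to 1.68) and SCN8A 51.3 against 79.5 CPM (ratio 1.55, 1.22 to 1.98). The latter 3 stood at 9.70%, 12.3% and 16.3% of the neuron level in CN PD, below the tracers at 21.2%, and summed tracers were 1468 CPM in CT and 1819.5 CPM in PD.

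**Figure D5:**
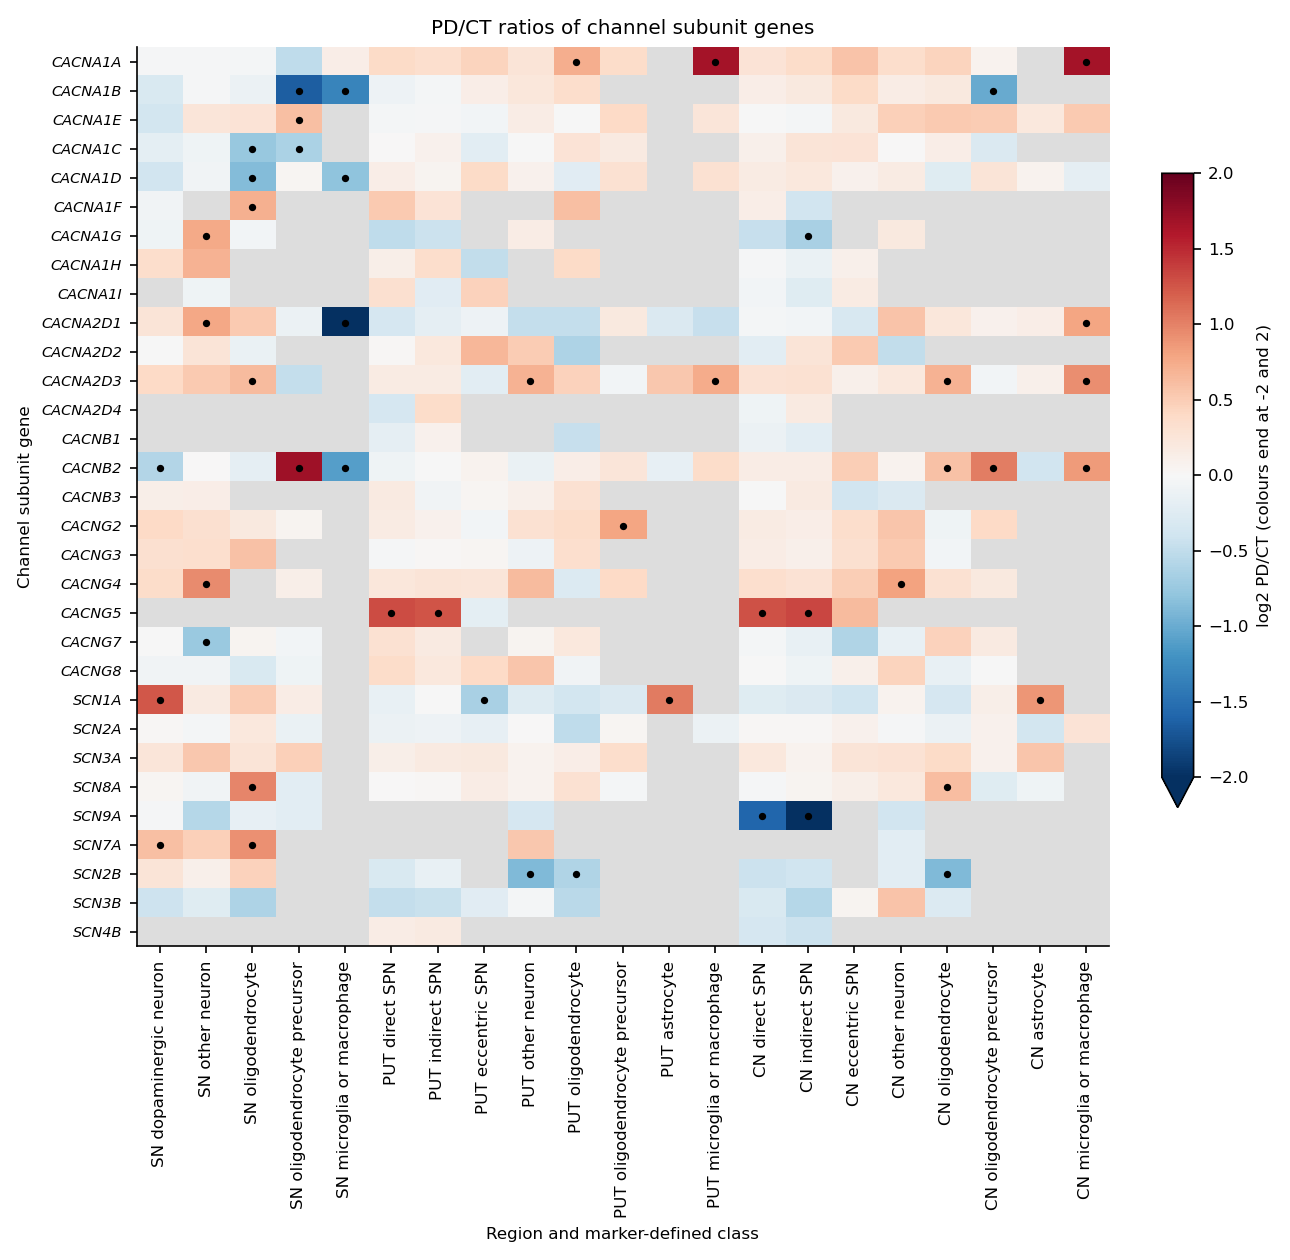
Log2 ratio of PD to CT for 31 of the 33 channel genes measured in at least 1 comparison (rows) in the 21 comparisons (columns); grey marks fewer than 50 UMIs over both matrices, and black dots mark the 49 of these ratios past the fold whose interval excludes 1. CACNG5 is red in direct and indirect spiny projection neurons of PUT and CN, CACNA1A is red in the striatal microglia or macrophage columns, and the dopaminergic column holds dots at SCN1A, SCN7A and CACNB2.

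Over all 21 comparisons there were 423 measured pairs of gene and class, of which 60 were past the fold, 37 higher and 23 lower in PD, and 51 had an interval that excluded 1. The 60 were 14.2% of the pairs, and over the same comparisons 16.2% of all measured pairs of gene and class were past the fold, from 12.3% to 25% in single comparisons. The share of the channel genes is near that of all genes. The split by direction was not summed over all genes. In most single comparisons more of all genes past the fold were lower than higher in PD. Direct pathway SPNs of CN had 397 higher and 1681 lower. Microglia or macrophages of CN were among those with the reverse, at 361 higher and 224 lower. PUT and CN are separate matrices, not shown to come from different animals, and 8 classes were compared in both. Past the fold in the same direction in both regions were CACNG5 in direct and in indirect pathway SPNs, CACNG4 in other neurons (with an interval that held 1 in PUT), SCN2B in oligodendrocytes, SCN1A in astrocytes and CACNA1A and CACNA2D3 in microglia or macrophages. Over clusters held by both matrices, CACNG5 of the direct classes had under 50 UMIs, CACNG4 of CN and SCN2B of PUT were within the fold, and astrocytes of CN gave no comparison. No channel gene was past the fold in opposite directions in PUT and CN within a class. The overlap between the regions was not counted over all genes, so no background share stands beside it.

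Genes that work with these channels were described with 3 lists: sodium channel partners, calcium channel partners, and calcium stores, pumps, exchangers and buffers. In dopaminergic neurons 1 of 17 measured sodium channel partners was past the fold (13.9% of all genes measured), with a list median log2 ratio of -0.013, and none of 13 calcium channel partners was, with a median of -0.088, beside 0.030 for all genes measured there. That partner was NRCAM, an adhesion molecule of the axon initial segment and node (424 against 679 CPM, ratio 1.60, 1.51 to 1.70). Of 19 measured store, pump and buffer genes 2 were higher and 2 lower: CALB1 (4.51 against 12.2 CPM, ratio 2.71, 1.63 to 4.62) and the plasma membrane calcium pump ATP2B4 (27.1 against 42.2 CPM, ratio 1.56, 1.24 to 1.96) were higher, and the ryanodine receptor RYR3 (1373 against 896 CPM, ratio 0.652, 0.626 to 0.679) and the sodium-calcium exchanger SLC8A3 (250.4 against 164 CPM, ratio 0.654, 0.595 to 0.719) lower.

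In other nigral neurons the sodium leak channel partner FAM155A (12.7 against 25.5 CPM, ratio 2.01, 1.07 to 4.01) was higher and the inositol trisphosphate receptor ITPR2 (270.5 against 114 CPM, ratio 0.421, 0.347 to 0.510) lower. In SPNs, ITPR2 was higher in direct pathway SPNs of PUT (10.8 against 20.2 CPM, ratio 1.88, 1.40 to 2.53), in indirect pathway SPNs of PUT (11.9 against 23.1 CPM, ratio 1.93, 1.52 to 2.47) and in indirect pathway SPNs of CN (10.001 against 18.7 CPM, ratio 1.87, 1.46 to 2.41). Oligodendrocyte precursors of PUT held far more ITPR2, at 472 against 744 CPM (ratio 1.58, 1.25 to 1.99). The part of free RNA from glia in the SPN values was not tested. ATP2B4 was higher in direct (12.3 against 29.4 CPM, ratio 2.40, 1.96 to 2.94) and indirect pathway SPNs of CN (18.8 against 29.1 CPM, ratio 1.55, 1.29 to 1.87), where REM2, a small GTPase that inhibits calcium channels, was lower (4.62 against 1.58 CPM, ratio 0.342, 0.188 to 0.594 in the direct class). Of the sodium channel partners none of 16 was past the fold in direct pathway SPNs of CN (17.1% of all genes measured) and none of 16 in indirect pathway SPNs (17.6%). In PUT, 1 of 16 was lower past the fold in direct (13.8%) and 1 of 17 in indirect pathway SPNs (13.9%).

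In microglia or macrophages of the SN, the scaffold CASK was lower (771 against 357 CPM, ratio 0.463, 0.393 to 0.543) and the membrane adaptor ANK2 higher (200.01 against 314 CPM, ratio 1.57, 1.26 to 1.96). ANK2 was also higher in oligodendrocytes of the SN (1012 against 1554 CPM, ratio 1.54, 1.49 to 1.58) and in microglia or macrophages of PUT (191 against 309 CPM, ratio 1.62, 1.17 to 2.27). In precursors of CN, SPTBN4, a spectrin of axon initial segments, was higher (52.1 against 135 CPM, ratio 2.60, 1.56 to 4.50), and so was ITPR1 (44.6 against 104 CPM, ratio 2.34, 1.33 to 4.28).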

How the data were processed

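The authors deposited 6 matrices of UMI counts per gene and barcode, made with Cell Ranger 7.0.1 per the file headers. The submitters' processing notes name hg38, the extract protocol in the labels names Macaca_mulatta, and the gene identifiers are those of Macaca fascicularis; whether intronic or antisense reads were counted is not given in the sources used here. A matrix was tied to its region and to PD or CT by its file name alone, and 0 columns of single samples were left unused.

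Retained nuclei had 500 or more genes, no more than 5% of UMIs from mitochondrial genes, and a doublet score from Scrublet not above 0.25 (expected rate 0.06; the automatic thresholds marked between 0 and 497 barcodes a matrix and were not used). Python 3.11.15 with scanpy 1.11.5 clustered all nuclei on 2000 variable genes without the channel genes, with 30 principal components, 15 neighbours and a Leiden resolution of 1. Clusters of at least 60 nuclei were divided again on 1000 genes at a resolution of 0.5. Batch and free RNA were not corrected. Clusters were named from marker lists, and the thresholds of naming were chosen after the data were seen. Classes of at least 100 nuclei in both matrices were compared, log2 ratios carry 0.5 UMI added to each sum, and intervals were computed with scipy 1.17.1. The interval code was tested on simulated data.

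The members and lists were chosen with earlier results of these data known. Results of some members and partners are not reported here. Named were the main subunits of each role whatever their values, 49 of the 51 ratios past the fold with an interval that excluded 1, and some of the partner genes past the fold, up to 4 a list and comparison, picked from those ranked by the interval bound nearest 1 after their values were seen.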

Additional observations from a re-analysis of the deposited data

Results flagged for a closer look

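In the microglia or macrophage class, CACNA2D1 and CACNB2 moved in opposite directions between PD and CT in 2 regions. The log2 ratio of CACNA2D1 was -2.73 in the SN and 0.79 in CN, and that of CACNB2 was -1.1 in the SN and 0.85 in CN. The difference between the regions was not tested. The class was made up of clusters c8.0 and c16.0 in the SN and mainly of cluster c8.2 in CN, and within cluster c8.0 CACNA2D1 was 117 CPM in CT and 38.8 CPM in PD, while CACNB2 was 65.5 and 58.2 CPM.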

How the results depend on the processing

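No paired analysis was possible because no barcode is tied to a labelled sample and each region has 1 matrix of PD and 1 of CT, and for the same reason no replicate could be left out. The counts of pairs of channel gene and class past the fold, in which a gene counts once for each class, were 24 in the SN, 15 in PUT and 21 in CN. Together they were 14.2% of the 423 measured pairs, beside 16.2% of all measured pairs of gene and class. No share over all genes stands beside the counts by region that follow. With nuclei of at least 1000 genes the CN count was 10, and no microglia or macrophage class remained. With a minimum of 20 UMIs the counts were 31 in PUT and 34 in CN, and with 200 UMIs they were 10 in the SN, 7 in PUT and 9 in CN. At a fold of 2 they were 6 in the SN, 4 in PUT and 7 in CN. SCN7A in SN oligodendrocytes reversed to a log2 ratio of -0.012 with nuclei of at least 1000 genes; the cause was not tested. Without cluster c7.6, an alternative added after the data were seen, the log2 ratio of SCN1A in dopaminergic neurons was 0.71 and SCN7A and CACNB2 dropped short of the fold, at 0.54 and -0.58. Of 49 ratios past the fold whose interval excluded 1, 47 could be computed over clusters held by both matrices, also an added alternative: 34 were past the fold there, 7 within it and 6 under 50 UMIs. Log2 ratios outside the counting interval of the reported ratio over those clusters were SCN8A in SN oligodendrocytes (1.78), CACNA2D1 in SN microglia or macrophages (-1.73), CACNG5 in direct (0.78) and indirect (0.64) pathway SPNs of PUT and indirect ones of CN (0.70), SCN9A in direct pathway SPNs of CN (-3.69) and CACNA1G in indirect ones (-1.46). Of these, CACNG5 in direct pathway SPNs of PUT had 19 UMIs, CACNA1G 30, and SCN9A 6 with none in PD, all under the minimum of 50. The numbers past the fold were 23 of 31 with at least 1000 genes, 42 of 49 as the mean of single-nucleus CPM, 44 with no doublet removal, 46 when centred on the median of all genes, 46 at a resolution of 0.5, 47 with at least 200 genes, and 49 with channel genes in the clustering or a pseudocount of 1 UMI. Past the fold in every alternative that gave a value were 25 of the 49. The minimum of 50 UMIs left 4 to 9 channel genes measured in astrocytes and microglia or macrophages and 13 to 31 in the other classes.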
